A study of Mus musculus with 24 samples.

Results

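The genes described here encode the nuclear-encoded proteins that copy and transcribe mitochondrial DNA (mtDNA), stabilize its transcripts and bring pyrimidine nucleotides into the mitochondrial matrix. They are *Polrmt*, *Tfam*, *Tfb2m*, *Tefm*, *Lrpprc*, *Slirp*, *Polg*, *Twnk*, *Ssbp1* and *Slc25a33*, 10 of the 56884 genes counted. The genes were chosen by name for these roles and by no cutoff on a value, but with earlier results of these data known. All 10 passed the filter on low counts, as part of 13679 genes tested. RNA-seq was done on bone marrow–derived macrophages from wild-type C57BL/6J mice, female and 9 weeks old, grown with the macrophage growth factor M-CSF. Each of 4 mice, numbered 1, 2, 4 and 5, contributed a library to every condition. Naive macrophages were left unstimulated for 24 hours, and the other conditions received IL-4 and IL-13, each at 20 ng/ml, for 24 hours. In 4 of these the cells were first treated for 1 hour with an inhibitor: tunicamycin at 5 µg/ml, Sal003 at 10 µM, or, in 2 conditions, oligomycin at 1 µM, with ISRIB at 1 µM in just 1 of the oligomycin conditions, and inhibitors stayed present during the cytokine treatment. Titles and library names contradict each other on which of these received ISRIB. They are called oligomycin set A (ISRIB according to the titles) and oligomycin set B (ISRIB according to the library names), and the choice of a reading rests on no measurement. The comparison of cytokine-treated with naive macrophages addresses the response to IL-4 and IL-13, and the inhibitor comparisons ask how that response differs when the integrated stress response (ISR) is engaged. The concentration unit of M-CSF also differs between the labels and the paper. Reads counted on genes ranged from 16238727 to 26725278 per library with a median of 18999998, and the highest total belonged to mouse 5 of set B. Among the naive libraries that of mouse 2 stood apart, with a chi-squared per gene of 27.3, 33.5 and 35.9 against mice 1, 4 and 5, where the pairs without it had 6.05 to 7.98. With Sal003 mice 4 and 5 differed by 22, and the other pairs by 3.18 to 9.86. Set B split into mice 1 and 4 (6.01) and mice 2 and 5 (3.2), with 12.9 to 18.9 across these pairs, while pairs of the cytokines alone, tunicamycin and set A had 2.19 to 7.43. Beyond fits without each mouse, the part of this spread in the results was not tested.

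Animal mtDNA is transcribed from a few promoters into long RNAs that cover most of each strand, and messenger, transfer and ribosomal RNAs are then released from them. The RNA polymerase POLRMT starts transcription with TFAM and TFB2M, TEFM lets it elongate, and LRPPRC with its partner SLIRP keeps the mRNAs stable. Copying of mtDNA needs the polymerase POLG, the helicase TWNK and the single-strand DNA-binding protein SSBP1, and every one of these proteins is made in the cytosol and imported. Among the inhibitors, tunicamycin blocks N-linked glycosylation in the endoplasmic reticulum, Sal003 blocks dephosphorylation of the translation factor eIF2α, oligomycin blocks the mitochondrial ATP synthase, and ISRIB counteracts the ISR.

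Marker genes were used to check the labelled cell type and treatments, with levels given as CPM, the counts scaled to a common TMM-normalized library size. Macrophage markers were abundant in every condition, with summed levels of the 6 genes between 4952 CPM in a set A library and 11150 CPM in a naive library. *Csf1r*, the receptor for M-CSF, was lowest with tunicamycin at 821 CPM, against 3729 CPM with the cytokines alone, while *Adgre1*, which encodes the surface marker F4/80, was highest there at 6674 CPM against 977 CPM, after a fall from 3484 CPM in naive macrophages. Of the 6 genes 0 rose and 5 fell with the cytokines (median log2 fold change -0.97), 2 and 3 with tunicamycin (-0.72), 3 and 1 with Sal003 (0.44), 2 and 3 in set A (-0.33) and 3 and 1 in set B (0.29), while 0 were higher and 5 lower in set A than set B (-0.64). Each 0, by edgeR, was also 0 at an unadjusted *P* under 0.05 and 0 by DESeq2. For *Adgre1* the last call (adjusted *P* = 0.038) was lost in 4 of 10 alternatives to the processing (range 0.0027 to 0.12). The cytokine marker *Retnla* averaged 0.113 CPM in naive macrophages, 7748 CPM after the cytokines, 0.0119 CPM with tunicamycin and 154 CPM with Sal003. It averaged 49.6 CPM for set A and 280 CPM for set B. Set A against set B gave a log2 fold change of -2.50 (adjusted *P* = 1.1e-07, lower in 4 of 4 mice). *Retnla* changed most of 7 cytokine markers in each comparison. All 7 rose with the cytokines and fell with each inhibitor. Their median log2 fold change was 6.85 after the cytokines and, relative to the cytokines alone, -7.61 with tunicamycin. The median was -1.97 for set A, -1.79 with Sal003 and -1.73 for set B. Between the sets 6 were lower and 1 higher in set A, with a median of -1.11 and a highest value of 0.725. *Atf4*, the gene of a transcription factor of the ISR, averaged 116 CPM in naive macrophages, 136 CPM with the cytokines alone, 1093 CPM with tunicamycin, 206 CPM with Sal003, 704 CPM for set A and 478 CPM for set B. The pseudokinase gene *Trib3*, an ATF4 target, followed with 2.39, 3.55, 834, 33.8, 541 and 146 CPM in the same order of conditions. Of 8 ISR genes 5 rose and 1 fell with the cytokines, and 6 were higher and 1 lower in set A than set B. Relative to the cytokines alone 7 rose and 1 fell with tunicamycin, 5 and 1 with Sal003, 7 and 1 in set A, and 7 and 0 in set B (the 0, by edgeR, also at an unadjusted *P* under 0.05 and by DESeq2). The 1 that fell with tunicamycin, with Sal003 and in set A, named after its values were seen, was *Atf3*. It had 865 CPM for the cytokines alone, 311 CPM for tunicamycin, 646 CPM for Sal003 and 720 CPM for set A. Some genes of this list are named by the study for the ISR, so their direction is not independent of that choice.

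Other marker lists moved with the conditions as well. Of 6 neutrophil genes 5 were tested, and relative to IL-4/IL-13–treated macrophages 5 fell with tunicamycin, with Sal003 and in set A and 4 in set B, after 4 had fallen from naive to IL-4/IL-13–treated macrophages, and 5 were lower in set A than set B. Summed neutrophil levels for mice 1, 2, 4 and 5 were 52, 74.4, 54 and 38.8 CPM in naive macrophages, 38.5, 38.4, 41.4 and 22.7 CPM with the cytokines, and 0.103, 0.285, 0.0567 and 0.102 CPM with tunicamycin. They were 4.72, 5.52, 8.26 and 8.08 CPM with Sal003, 3.83, 2.73, 4.66 and 2.65 CPM for set A, and 18.7, 19.1, 23.6 and 24.5 CPM for set B. The calprotectin gene *S100a9* was the most abundant of them in naive macrophages at 18.3 CPM, and *Elane* and *Camp* had no count in any library of tunicamycin or set A. Stromal genes (*Col1a1*, *Col1a2*, *Pdgfrb*) followed the mouse, with mouse 1 highest and mouse 5 lowest in each condition. Their sums for mice 1, 2, 4 and 5 were 128, 78.5, 83.8 and 18 CPM in naive macrophages, 81, 52.4, 47.3 and 15.4 CPM with the cytokines, and 24.4, 14.8, 18.6 and 3.46 CPM with tunicamycin, with *Col1a2* the most abundant. With Sal003 they were 46.5, 28.1, 31.3 and 7.61 CPM, in set A 52, 25.9, 28.5 and 5.74 CPM, and in set B 50.6, 26.9, 29.7 and 8.32 CPM. Relative to the cytokines alone, the sum was lower in every mouse with each inhibitor. Without the mouse in the fit 2 of these 3 genes fell with tunicamycin, 0 with Sal003 by edgeR (1 at an unadjusted *P* under 0.05, 0 by DESeq2), and 1 in each oligomycin set, whereas with the mouse as a replicate block 3 of 3 fell in each of these comparisons, and 2 from naive to IL-4/IL-13–treated macrophages. With that block the 4 neutrophil genes that fell with the cytokines were 5.

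Of 4 dendritic cell genes 3 were tested, and all 3 fell with each inhibitor, from a mean sum of 8.29 CPM with the cytokines alone to 1.8 CPM with tunicamycin, 2.81 CPM with Sal003, 2.41 CPM for set A and 2.91 CPM for set B. *Zbtb46* was the most abundant of them, and *Xcr1* had no count in naive, IL-4/IL-13–treated and Sal003-treated libraries. The T cell genes *Cd3e*, *Cd3d* and *Cd3g* and the erythroid gene *Hba-a1* had 3 or fewer counts in every library. Mean sums of the B cell genes were 0.828 CPM in naive macrophages, 0.764 CPM after the cytokines and at most 0.268 CPM with an inhibitor, led by *Cd79a*. Those of mast cell or basophil genes lay between 0.0836 and 0.792 CPM, led by *Mcpt8* in naive macrophages. All 8 proliferation genes rose with the cytokines and fell with each inhibitor. Their mean sums were 252 CPM in naive macrophages, 740 CPM after the cytokines, 150 CPM with tunicamycin, 399 CPM with Sal003, 294 CPM for set A and 392 CPM for set B, with *Pcna* the most abundant. In such bulk samples, fewer cells of a type and less RNA per cell cannot be told apart. The part of these cell markers and of proliferation in the results on mitochondrial genes was not tested.

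IL-4 and IL-13 left most of the 10 genes close to their naive level, with *Lrpprc* higher and *Slc25a33* lower by the largest margins. Called genes are those with an adjusted *P* under 0.05 in edgeR, each direction counted apart. By this rule 4 of the 10 rose (*Lrpprc*, *Tfam*, *Tefm*, *Polrmt*) beside 30.1% of all genes tested, and 1 fell (*Slc25a33*) beside 30.4%. The median log2 fold change was 0.14 over the 10 genes and -0.023 over all genes tested. Both counts depend on mouse 2, whose naive library stood apart. Without mouse 2, 5 rose, with *Slirp* and *Ssbp1* added and *Polrmt* not called, and 2 fell, with *Polg* added. Without mouse 5 the higher count was 2.

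The 4 inhibitor comparisons share the same IL-4/IL-13–treated libraries, so they are not independent of each other. With tunicamycin 6 of the 10 genes rose, beside 38.7% of all genes, and 2 fell, beside 37.6%. Sal003 raised 3, beside 25.9%, and lowered 0, beside 24.6%. That 0, from edgeR, was also 0 at an unadjusted *P* under 0.05 and 0 by DESeq2, and without mouse 4 it was 1 (*Tfb2m*), while the count of 3 was 1 without mouse 1. In set A 4 rose, beside 34% of all genes, and 2 fell, beside 32.2%. In set B 1 rose, beside 27.9%, and 2 fell, beside 26.4%. The 1 that rose there was *Slc25a33*, and without mouse 2 *Slirp* made it 2. Medians over the 10 genes were 0.18 with tunicamycin, 0.066 with Sal003, 0.13 for set A and 0.078 for set B, and those over all genes lay between 0.003 and 0.007. *Slc25a33* rose and *Polg* and *Tfb2m* fell with tunicamycin and in both oligomycin sets. Between the oligomycin sets, 3 of the 10 genes were higher in set A, beside 19.9% of all genes, and 2 were lower, beside 21.3%, a count that was 1 without mouse 1, 0 without mouse 4 and 0 without mouse 5, and the median was 0.036 beside -0.002. Other differences between inhibitors were not tested. Of the 60 values of a gene in a comparison, 30 were called, and 19 of these kept their call in all 10 alternatives to the processing. The 30 are to be read beside the shares of all genes above. A share of all genes that kept their call is not given, so the 19 have no such measure beside them.

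**Figure D1:**
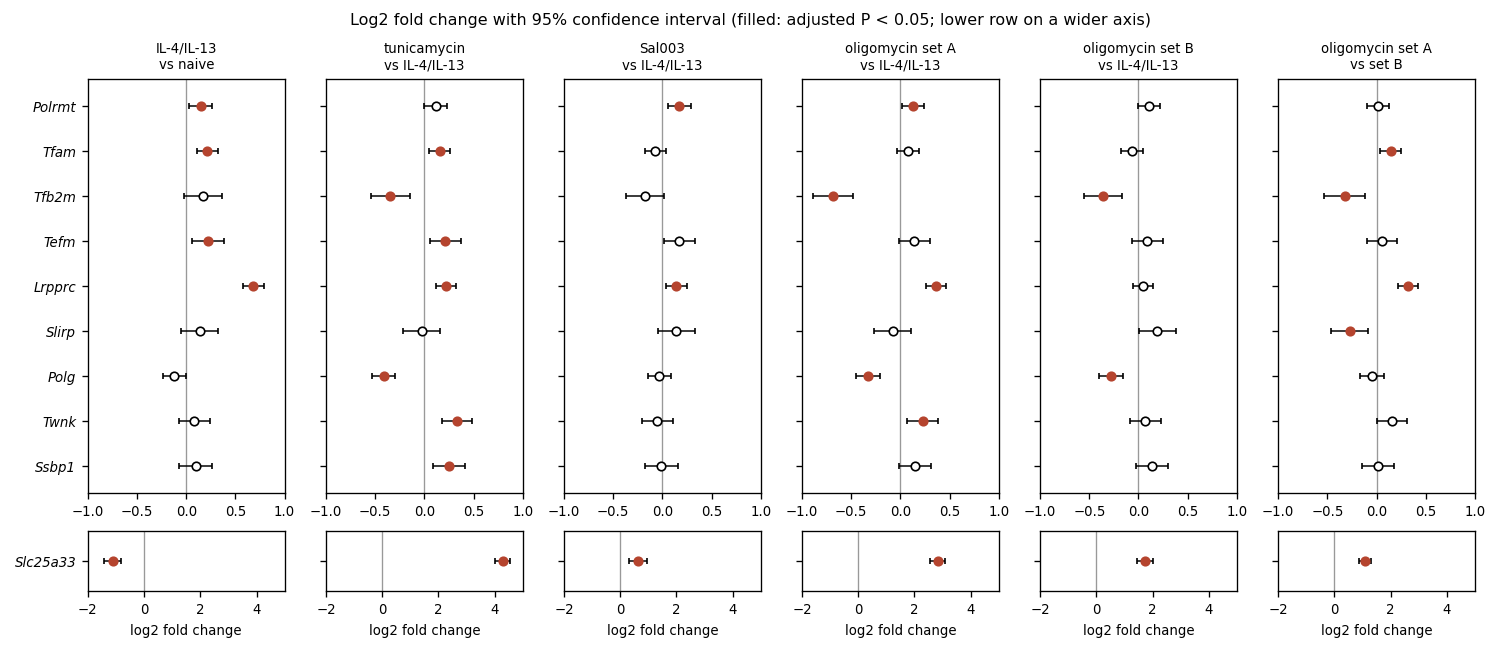
Log2 fold changes of the 10 genes in 6 comparisons (points, edgeR; bars, 95% confidence intervals; filled, adjusted *P* under 0.05), with *Slc25a33* on a wider axis of its own. *Slc25a33* spans -1.12 to 4.29, while the other 9 genes lie between -0.69 and 0.68.

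Among the transcription genes, *Polrmt* (ENSMUSG00000020329), for the mitochondrial RNA polymerase, lies on the minus strand at chr10:79571957-79582420 of GRCm39. Its level varied least of the 10, from 23.4 ± 0.884 CPM in naive macrophages (mean ± SD, n = 4 mice) to 26 ± 1.52 CPM with the cytokines and 29.2 ± 1.83 CPM with Sal003, where it was highest. Every neighbouring pair of conditions in the order of its means overlapped. It was called higher with the cytokines (log2 fold change 0.15, adjusted *P* = 0.026, higher in 4 of 4 mice), with Sal003 (0.17, adjusted *P* = 0.011, 4 of 4 mice) and in set A (0.12, adjusted *P* = 0.048, 4 of 4 mice). None of these calls held in all 10 alternatives. With the cytokines it was lost in 4 of 10, with 0.2 and 0.071 when mouse 2 or mouse 5 was left out (range of adjusted *P* over the alternatives 0.012 to 0.2), and with Sal003 in 3 of 10, with 0.29 without mouse 1 (range 0.011 to 0.29). The call in set A was lost in 8 of 10 alternatives, with DESeq2 (0.18), at least 10 counts in every library (0.12), no filter (0.17), a fit of the 2 groups (0.051), upper-quartile scaling (0.077) and without mouse 1, 4 or 5 (0.21, 0.063 and 0.19, range 0.034 to 0.21). With tunicamycin the adjusted *P* was 0.064, and it was 0.046 without mouse 2 (range 0.046 to 0.33).

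*Tfam* (ENSMUSG00000003923, minus strand, chr10:71061287-71074110) encodes the high mobility group protein that packages mtDNA and bends its promoters. All 4 naive libraries, at 22.2 to 23.2 CPM, lay below all libraries of the other conditions, whose means ran from 25.1 ± 1.04 CPM with Sal003 to 29.4 ± 0.781 CPM with tunicamycin. The rise with the cytokines was 1.16-fold (95% confidence interval 1.08 to 1.25, adjusted *P* = 0.0012, 4 of 4 mice) and that with tunicamycin 1.11-fold (1.03 to 1.2, adjusted *P* = 0.0098, 4 of 4 mice). The first call held in every alternative. The second was lost when at least 10 counts were required in every library (0.063) and with upper-quartile scaling (0.078), in a range of 0.013 to 0.078. Set A was above set B (log2 fold change 0.14, adjusted *P* = 0.033, higher in 3 of 4 mice, ranges overlapping), a call lost in 6 of 10 alternatives, with 0.062, 0.15 and 0.35 without mouse 1, 2 or 5 (range 0.0074 to 0.35).

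*Tfb2m* (ENSMUSG00000026492, minus strand, chr1:179355610-179374548) encodes the factor that opens the promoter for the polymerase, and its counts are less certain, because 72.3% of its transcript sequence is near-identical to sequence of other annotated genes (at least 95% over 100 bases or more). Its levels for mice 1, 2, 4 and 5 were 10, 8.52, 8.74 and 9.53 CPM in naive macrophages, 10.8, 10.4, 9.84 and 10.4 CPM with the cytokines, and 7.39, 8.14, 9.07 and 8.09 CPM with tunicamycin. They were 8.87, 9.3, 10.7 and 7.87 CPM with Sal003, 7.67, 6.44, 5.55 and 6.04 CPM for set A, and 8.5, 8.04, 8.03 and 7.74 CPM for set B. Set A was the lowest condition, with all 4 libraries below every other library apart from mouse 1, which was above the lowest library with tunicamycin, while the libraries of tunicamycin and set B all lay below those with the cytokines alone. *Tfb2m* fell by 0.69 on the log2 scale in set A (standard error 0.10, adjusted *P* = 9.8e-07), by 0.36 in set B (standard error 0.10, adjusted *P* = 0.0025) and by 0.34 with tunicamycin (standard error 0.10, adjusted *P* = 0.0023), lower in 4 of 4 mice each time. With Sal003 the log2 fold change was -0.18 (adjusted *P* = 0.13), and without mouse 4 it was -0.28 (0.029, range 0.029 to 0.47). Set A was lower than set B (log2 fold change -0.33, adjusted *P* = 0.01, lower in 4 of 4 mice), and the adjusted *P* was 0.055 without mouse 4 and 0.05 without mouse 5 (range 0.0078 to 0.055).

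*Tefm* (ENSMUSG00000046909, minus strand, chr11:80027498-80033839), the elongation factor of the polymerase, had 6.21 to 7.61 CPM in naive macrophages, below every library of the other conditions. Its mean was 6.84 ± 0.581 CPM in naive macrophages and 7.95 ± 0.336 CPM after the cytokines, and it reached 9.24 ± 0.558 CPM with tunicamycin. The cytokine response was 0.22 on the log2 scale (adjusted *P* = 0.019, higher in 4 of 4 mice). This call was lost in 5 of 10 alternatives, with 0.089, 0.083 and 0.078 without mouse 1, 4 or 5 (range 0.0089 to 0.089). With tunicamycin it rose by 0.21 (adjusted *P* = 0.013, 4 of 4 mice), a call lost with DESeq2 (0.062), with upper-quartile scaling (0.066) and without mouse 4 (0.065), in a range of 0.015 to 0.066.

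**Figure D2:**
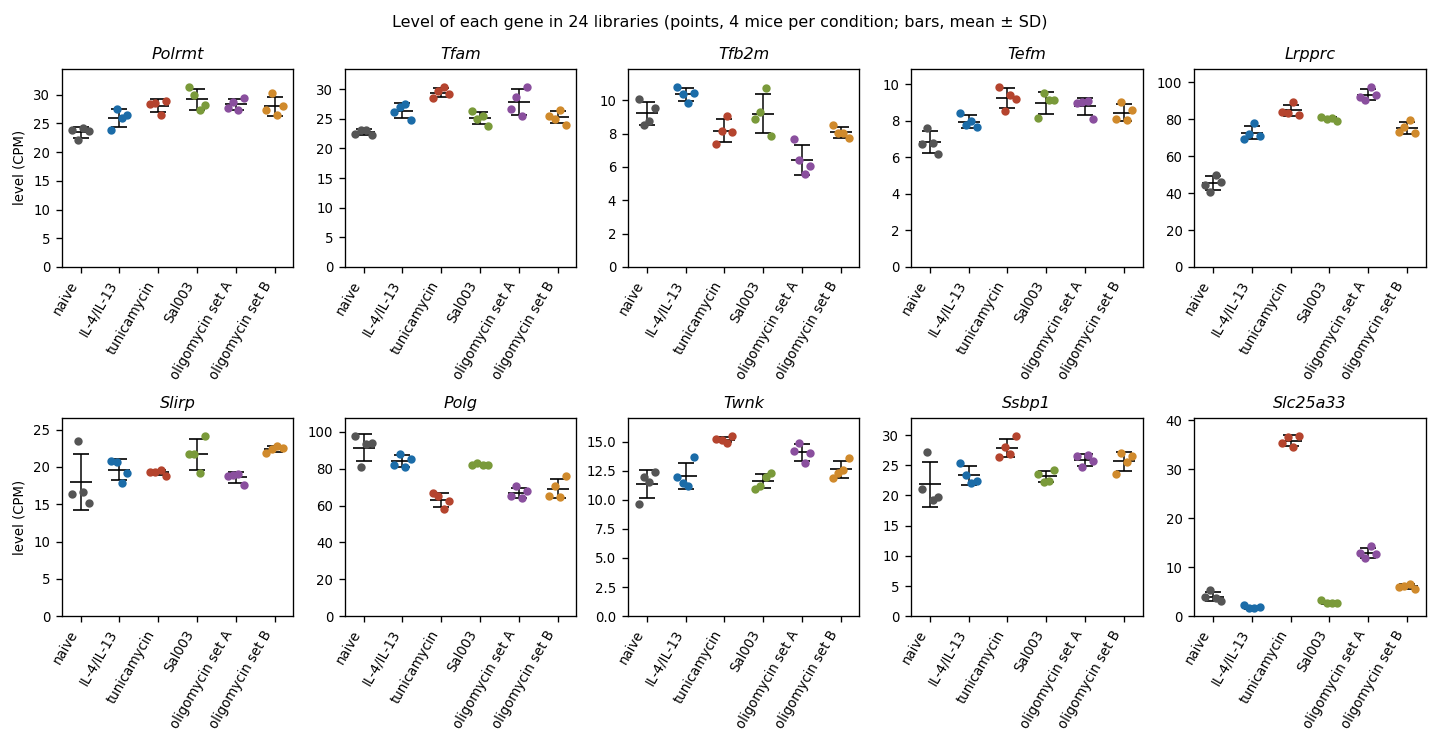
Level of each of the 10 genes in CPM on a linear axis from 0 (points, 4 mice per condition; black bars, mean ± SD). *Slc25a33* is separated most strongly by condition, from a mean of 1.84 CPM after the cytokines to 35.8 CPM with tunicamycin, and *Lrpprc* is lowest in the 4 naive libraries.

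*Lrpprc* (ENSMUSG00000024120, minus strand, chr17:85012670-85098279) encodes the pentatricopeptide repeat protein that stabilizes mitochondrial mRNAs and promotes their polyadenylation. Its levels for mice 1, 2, 4 and 5 were 44.4, 40.7, 49.8 and 46.2 CPM in naive macrophages, 69.5, 72.2, 77.9 and 71.2 CPM with the cytokines, and 83.9, 83.5, 89.1 and 82.5 CPM with tunicamycin. They were 81.2, 80.3, 80.8 and 79 CPM with Sal003, 91.8, 90.6, 97.6 and 93.4 CPM for set A, and 72.9, 75.6, 79.3 and 72.3 CPM for set B. The naive libraries were lowest and the set A libraries highest without overlap, tunicamycin came next, and set B overlapped both the cytokines alone and Sal003. *Lrpprc* rose 1.6-fold with IL-4 and IL-13 (95% confidence interval 1.49 to 1.73, adjusted *P* = 2e-11, higher in 4 of 4 mice). Beyond the cytokines alone its log2 fold change was 0.36 in set A (standard error 0.05, adjusted *P* = 6.6e-07, 4 of 4 mice) and 0.22 with tunicamycin (standard error 0.05, adjusted *P* = 0.00032, 4 of 4 mice). The rise of 0.14 with Sal003 (adjusted *P* = 0.02, 4 of 4 mice) was lost in 4 of 10 alternatives, with 0.22 and 0.11 without mouse 1 or 5 (range 0.0048 to 0.22). In set B the log2 fold change was 0.045 (adjusted *P* = 0.48), and its sign turned with upper-quartile scaling. Set A exceeded set B by 0.32 (standard error 0.05, adjusted *P* = 1.3e-05, 4 of 4 mice).

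*Slirp* (ENSMUSG00000021040, plus strand, chr12:87490572-87506290) encodes the small RNA-binding partner of LRPPRC. Transcripts of *Alkbh1* and *Snw1*, on the opposite strand, cover 97.6% of its own, and since it is not stated whether counting used the strand, its reads cannot be told apart from theirs. Its means ran from 17.9 ± 3.74 CPM in naive macrophages to 22.4 ± 0.405 CPM in set B, and every neighbouring pair of conditions overlapped. The naive library of mouse 2, at 23.5 CPM, stood above the other naive libraries at 15.2 to 16.7 CPM. The call for *Slirp* was between the oligomycin sets, lower in set A by 0.27 on the log2 scale (adjusted *P* = 0.019, lower in 4 of 4 mice), and it was lost with upper-quartile scaling (0.056) and without mouse 1, 4 or 5 (0.079, 0.06 and 0.094, range 0.00073 to 0.094). Without mouse 2 the cytokine comparison gave a rise of 0.26 (0.0078, range 0.0078 to 0.62) in place of 0.14 (adjusted *P* = 0.22). Set B against the cytokines alone gave 0.19 (adjusted *P* = 0.082), with 0.021 without mouse 2 and in a fit of the 2 groups compared (range 0.021 to 0.31).

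*Polg* (ENSMUSG00000039176, minus strand, chr7:79095974-79116110) encodes the catalytic subunit of the mtDNA polymerase. Its levels for mice 1, 2, 4 and 5 were 97.8, 80.7, 93.6 and 93.9 CPM in naive macrophages, 82.2, 87.8, 81.1 and 85.5 CPM with the cytokines, and 67.1, 65.1, 58 and 62.3 CPM with tunicamycin. They were 82, 83.1, 82.3 and 82.3 CPM with Sal003, 65.3, 70.5, 64.1 and 67.8 CPM for set A, and 65.2, 70.8, 64.7 and 75.9 CPM for set B. The conditions fell into a higher group (naive, cytokines alone, Sal003) and a lower group (both oligomycin sets, tunicamycin) that did not overlap, while the libraries within each group did. *Polg* fell by 0.41 on the log2 scale with tunicamycin (standard error 0.06, adjusted *P* = 6e-07), by 0.33 in set A (standard error 0.06, adjusted *P* = 2e-05) and by 0.28 in set B (standard error 0.06, adjusted *P* = 0.0002), lower in 4 of 4 mice each time. These 3 calls held in every alternative. From naive to IL-4/IL-13–treated macrophages the log2 fold change was -0.12 (adjusted *P* = 0.072), with 0.046 under upper-quartile scaling and -0.20 (0.0067) without mouse 2 (range 0.0067 to 0.44).

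*Twnk* (ENSMUSG00000025209, plus strand, chr19:44994102-45001204) encodes the helicase that unwinds mtDNA ahead of the polymerase, and 20.7% of its transcript is overlapped by *Mrpl43* on the opposite strand. Tunicamycin gave its highest level, 15.2 ± 0.234 CPM, above every library of the other conditions, against 12.1 ± 1.1 CPM with the cytokines alone and 11.4 ± 1.21 CPM in naive macrophages. The rise with tunicamycin was 0.33 on the log2 scale (standard error 0.08, adjusted *P* = 0.0003, 4 of 4 mice) and held in every alternative. In set A *Twnk* rose by 0.23 (adjusted *P* = 0.011, 4 of 4 mice, ranges overlapping), and without mouse 2 the value was 0.17 (0.12, range 0.0051 to 0.12). Set A against set B gave 0.16 (adjusted *P* = 0.099), and 0.044 with upper-quartile scaling (range 0.044 to 0.35). *Ssbp1* (ENSMUSG00000029911, plus strand, chr6:40448286-40524298), whose protein coats single-stranded mtDNA, ranged from 21.9 ± 3.69 CPM in naive macrophages to 27.8 ± 1.51 CPM with tunicamycin. It rose with tunicamycin by 0.26 (standard error 0.08, adjusted *P* = 0.0055, 4 of 4 mice), which held in every alternative. The naive library of mouse 2 was again high, at 27.3 CPM, and without that mouse the cytokine comparison gave a rise of 0.22 (0.011, range 0.011 to 0.73) in place of 0.096 (adjusted *P* = 0.31), and set A a rise (0.028, range 0.026 to 0.32) in place of 0.15 (adjusted *P* = 0.097).

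*Slc25a33* (ENSMUSG00000028982, minus strand, chr4:149828491-149858751) encodes a carrier that brings pyrimidine nucleotides across the inner mitochondrial membrane, the building blocks for RNA and DNA made in the matrix. Its levels for mice 1, 2, 4 and 5 were 3.9, 5.4, 3.64 and 3.08 CPM in naive macrophages, 2.23, 1.61, 1.58 and 1.94 CPM with the cytokines, and 35.3, 36.7, 34.5 and 36.8 CPM with tunicamycin. They were 3.32, 2.76, 2.6 and 2.73 CPM with Sal003, 13, 11.9, 14.3 and 12.7 CPM for set A, and 6.06, 6.11, 6.67 and 5.49 CPM for set B. Tunicamycin was highest, then set A, set B, naive, Sal003 and the cytokines alone, and in this order just naive macrophages and Sal003 overlapped. The cytokines lowered *Slc25a33* to 0.461 of its naive level (95% confidence interval 0.372 to 0.571, adjusted *P* = 5.1e-07, lower in 4 of 4 mice), from 62 to 95 counts per naive library to 30 to 40 counts. Against the cytokines alone it was 19.5-fold higher with tunicamycin (16.3 to 23.3, adjusted *P* = 3e-20), 7.06-fold in set A (5.86 to 8.52, adjusted *P* = 1.2e-15) and 3.3-fold in set B (2.7 to 4.04, adjusted *P* = 1.7e-10), higher in 4 of 4 mice each time. With Sal003 the rise was 1.56-fold (1.24 to 1.96, adjusted *P* = 0.0016, 4 of 4 mice), to a mean below that of naive macrophages. Set A exceeded set B 2.14-fold (1.83 to 2.5, adjusted *P* = 9.2e-09, 4 of 4 mice). All 6 calls held in every alternative, and with a minimum change of 2.5-fold *Slc25a33* alone of the 10 genes was called, with tunicamycin and in both oligomycin sets. The study itself counts *Slc25a33* among ISR genes that rise with oligomycin, so its direction here is not independent of that choice.

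The 10 genes differed widely in how far their condition means lay apart. *Slc25a33* spanned 4.22 log2 units of CPM, a wider span than 96.4% of the genes tested, and *Lrpprc* spanned 1.04, wider than 54%. *Tfb2m* (0.69) and *Polg* (0.53) were wider than 34.2% and 22.6% of genes, and the other 6, from *Polrmt* (0.32) to *Tefm* (0.43), were wider than 7.3% to 14.8%. Summed over the 10 genes, the level averaged 254 CPM in naive macrophages, 284 CPM with the cytokines, 321 CPM with tunicamycin, 295 CPM with Sal003, 303 CPM for set A and 281 CPM for set B. These sums are no measure of a change shared by the genes. From the cytokines alone to tunicamycin, *Slc25a33* went from 1.84 to 35.8 CPM and *Polg* from 84.15 to 63.1 CPM. The naive condition had the lowest mean for 7 of the 10 genes, and the share of all genes with this order is not given. For *Tfam*, *Tefm* and *Lrpprc* the naive libraries lay below those of the next condition. For *Polrmt*, *Slirp*, *Twnk* and *Ssbp1* they overlapped with it. As a description over the 24 libraries, which share 4 mice and 6 conditions, the tested genes with the pattern most like that of *Slc25a33* were *Ppp3cc* (Pearson r of log2 CPM 0.984), *Nars1* (0.984) and *Nfkbib* (0.983), and those most like that of *Polrmt* were *A930007I19Rik* (0.882), *Psmd1* (0.872) and *Taco1* (0.859).

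Other genes of the same pathway were described as lists, whose counts and medians are no test of a list. Apart from *Tfb1m*, *Slc25a36* and *Polg2*, genes are in general named where they had 1 of the 2 largest called changes per direction. A comparison left out for a gene therefore does not mean that it was unchanged there. Of all genes, 30.1% rose and 30.4% fell with the cytokines, 38.7% and 37.6% with tunicamycin, 25.9% and 24.6% with Sal003, 34% and 32.2% for set A, and 27.9% and 26.4% for set B, and 19.9% were higher and 21.3% lower in set A than set B, shares to be read beside the counts of each list. Of 16 further genes of mtDNA replication and maintenance, 4 rose and 7 fell with IL-4 and IL-13, 10 rose and 4 fell with tunicamycin, 7 and 4 with Sal003, 7 and 5 in set A, and 7 and 6 in set B, while 7 were higher and 2 lower in set A than set B. Their median log2 fold changes in this order of comparisons were -0.029, 0.25, -0.001, -0.000, -0.004 and 0.17. The nuclease and helicase gene *Dna2* rose with the cytokines by 1.09 and the nucleoid-associated ATPase gene *Atad3a* by 0.83, while the matrix kinase gene *Tk2*, which salvages deoxypyrimidines, fell by 0.85. *Dna2* then fell by 4.05 with tunicamycin, 1.51 in set A, 0.66 in set B and 0.33 with Sal003, from 60 CPM with the cytokines alone to 3.63, 21, 37.8 and 47.8 CPM, and set A against set B gave -0.85. The gene of the matrix protease *Lonp1*, which degrades TFAM, rose from 62.5 CPM to 222 CPM with tunicamycin (log2 fold change 1.83), 221 CPM for set A (1.82) and 117 CPM for set B (0.90), and was 0.92 higher in set A than in set B. The topoisomerase gene *Top1mt* rose by 0.60 with Sal003, 1.37 for set A and 0.71 for set B, with set A 0.66 above set B, and the ribonucleotide reductase subunit gene *Rrm2b* rose by 1.37 with tunicamycin. The DNA ligase gene *Lig3* rose by 0.45 with Sal003, the nuclease gene *Exog* fell by 0.29 with Sal003 and by 0.35 in set B, and the topoisomerase gene *Top3a* fell by 0.63 with tunicamycin. *Top3a* was lower in set A than set B by 0.20 (adjusted *P* = 0.025, 4 of 4 mice), a call lost in 4 of 10 alternatives, with 0.062 in a fit of the 2 groups, 0.074 with upper-quartile scaling, and 0.061 and 0.14 without mouse 1 or 5 (range 0.011 to 0.14). The count of 2 lower genes there was 1 with upper-quartile scaling and without mouse 1 or 5, and 4 without mouse 2, and the 6 lower in set B were 3 without a filter. All 31 called values named from this list, *Polg2* and *Slc25a36* included, had the same direction in 4 of 4 mice, with standard errors of 0.04 to 0.13 and adjusted *P* values of 2.7e-22 to 0.032.

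In this list are the accessory subunit of the polymerase, *Polg2*, and the closest paralogue of the nucleotide carrier, *Slc25a36*. *Polg2* fell in the same comparisons as *Polg*, by 0.55 with tunicamycin, 0.60 in set A and 0.33 in set B (adjusted *P* = 0.032, 4 of 4 mice), and also by 0.52 with the cytokines. In set B the call was lost in 3 of 10 alternatives, with 0.058 without a filter, 0.11 without mouse 1 and 0.18 without mouse 2 (range 0.014 to 0.18). With Sal003 *Polg2* had a log2 fold change of -0.23 (adjusted *P* = 0.13), called when just the 2 groups were fitted (0.042, range 0.042 to 0.31), and set A against set B gave -0.27 (adjusted *P* = 0.11), called without mouse 2 (0.022, range 0.022 to 0.38). *Slc25a36* fell by 0.56 with the cytokines, as *Slc25a33* did, and rose with tunicamycin by 0.28. In set A and set B it fell by 0.18 and 0.14, where *Slc25a33* rose. With Sal003 it fell by 0.12 (adjusted *P* = 0.016, 4 of 4 mice), with 0.06 without mouse 2 (range 0.0018 to 0.15), and without a filter on low counts the set B call was lost as well (0.055, range 0.00027 to 0.055). Set A against set B gave -0.038 (adjusted *P* = 0.5), a sign that turned with upper-quartile scaling.

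The list of 7 further transcription and termination genes had 2 rising and 1 falling with the cytokines, 4 and 1 with tunicamycin, 1 and 1 with Sal003, 4 and 1 in set A and 1 and 1 in set B, with 3 higher and 0 lower in set A than set B by edgeR (0 also at an unadjusted *P* under 0.05 and by DESeq2). Medians were -0.041, 0.38, 0.068, 0.39, 0.15 and 0.18. *Mrpl12*, which encodes a ribosomal protein also known to bind POLRMT, rose by 0.86 with the cytokines and fell by 0.53 with tunicamycin, 0.41 with Sal003, 0.41 for set A and 0.45 for set B. *Tfb1m*, the paralogue of *Tfb2m* that methylates the mitochondrial ribosomal RNA, rose by 0.52 with the cytokines, 1.39 with tunicamycin and 0.45 in set A, where *Tfb2m* fell in the last 2 of these, but 65.9% of its transcript is overlapped by exons on the opposite strand. With Sal003 and in set B *Tfb1m* had log2 fold changes of 0.068 (adjusted *P* = 0.6, turning in sign without mouse 1 or 5) and 0.16 (adjusted *P* = 0.18). Set A exceeded set B by 0.28 (adjusted *P* = 0.018, 4 of 4 mice), a call lost in 4 of 10 alternatives, with 0.065 without a filter and 0.098, 0.064 and 0.05 without mouse 1, 2 or 4 (range 0.0087 to 0.098). The termination-family gene *Mterf3* rose by 0.67 with tunicamycin, 0.50 in set A and 0.15 in set B, with set A 0.35 above set B. The call in set B (adjusted *P* = 0.017, 4 of 4 mice) was lost in 6 of 10 alternatives, with DESeq2 (0.068), no filter (0.12), upper-quartile scaling (0.1) and without mouse 2, 4 or 5 (0.064, 0.061 and 0.095, range 0.019 to 0.12), each of which left 0 rising there. *Mterf1a* rose by 0.36 with Sal003 (adjusted *P* = 0.035, 4 of 4 mice), a call also lost in 6 of 10, with DESeq2 (0.067), no filter (0.096), a fit of the 2 groups (0.077), upper-quartile scaling (0.062) and without mouse 1 or 4 (0.18 and 0.17, range 0.035 to 0.18), each leaving 0. *Mterf2* fell with the cytokines from 0.954 to 0.192 CPM, or 12 to 24 counts per library to 2 to 5. Without mouse 1 or without mouse 2 the 3 genes higher in set A were 1, without mouse 4 the 1 gene lower in set B was 2, and requiring 10 counts in every library left 0 falling with the cytokines.

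Of 34 genes that process, modify or degrade mitochondrial RNA, 11 rose and 5 fell with the cytokines, 23 rose and 6 fell with tunicamycin, 14 and 5 with Sal003, 21 and 5 in set A, and 14 and 5 in set B, with 16 higher and 3 lower in set A than set B. With upper-quartile scaling, or at least 10 counts in every library, the 5 falling in set B were 8. Their medians were 0.092, 0.40, 0.13, 0.31, 0.13 and 0.15. *Pde12*, for an exonuclease that removes poly(A) tails, rose from 26.2 to 73.3 CPM with the cytokines (log2 fold change 1.48) and fell by 1.2 with tunicamycin, 0.53 with Sal003, 0.90 for set A and 0.68 for set B, with set A lower than set B by a log2 fold change of -0.22. The 2′-O-methyltransferase gene *Mrm2* fell by 0.81, 0.36, 0.67 and 0.50 in the same 4 inhibitor comparisons, and its adjusted *P* with Sal003, 0.0071, was 0.089 without mouse 1 (range 0.0012 to 0.089). *Fastkd2*, for an RNA-binding protein of mitochondrial RNA granules, rose by 0.87 with tunicamycin, 0.57 with Sal003 and 0.83 in set A. The oligoribonuclease gene *Rexo2* rose by 1.41 with tunicamycin, and the polynucleotide phosphorylase gene *Pnpt1* by 0.76 with Sal003 and 0.61 in set B. Of 2 subunits of the mitochondrial RNase P, *Trmt10c* rose by 0.70 in set A and *Hsd17b10* by 0.66 in set B. Each is named by the rule above, and its value in the other set is not given. With the cytokines *Fastk* rose by 0.88, and *Fastkd3* and the tRNA-modifying *Trit1* fell by 0.49 and 0.51. Set A was above set B for the methyltransferase gene *Mrm3* (0.49) and for *Fastkd5* (0.47), whose exons are shared to 72.8% with *Ubox5* on the same strand, and below it for the pseudouridine synthase gene *Rpusd4* by a log2 fold change of -0.20. The 24 values named from this list had the same direction in 4 of 4 mice, with standard errors of 0.044 to 0.13 and adjusted *P* values of 8.2e-18 to 0.0071.

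Nuclear regulators of mitochondrial genes are transcription factors and coactivators that act on the promoters of such genes. Of 9 listed, 8 were tested (*Ppargc1a* was not), and 4 rose and 2 fell with the cytokines, 3 and 3 with tunicamycin, 1 and 4 with Sal003, 3 and 5 in set A and 3 and 4 in set B, with 4 higher and 2 lower in set A than set B. Medians were 0.14, 0.04, -0.15, -0.21, -0.15 and 0.097. The coactivator gene *Ppargc1b* rose with the cytokines from 3.13 to 36.5 CPM, and was at 1.46 CPM with tunicamycin, 14.1 CPM with Sal003, 5.13 CPM for set A and 11.4 CPM for set B, log2 fold changes of -4.65, -1.37, -2.83 and -1.67, with -1.15 for set A against set B. *Myc*, for a growth-related transcription factor, rose by 2.93 with the cytokines and fell by 1.47 with Sal003, 0.93 for set A and 1.44 for set B, with set A 0.51 above set B. The related coactivator gene *Pprc1* instead rose by 1.36 with tunicamycin, 0.41 with Sal003, 0.87 for set A and 0.39 for set B, with set A 0.48 above set B. *Nrf1*, for an activator of respiratory chain genes, rose by 0.57 with tunicamycin and 0.62 in set A. With the cytokines *Nrf1* fell by 0.13 (adjusted *P* = 0.037, lower in 3 of 4 mice), a call lost in 6 of 10 alternatives, with 0.076, 0.21 and 0.38 without mouse 1, 2 or 5 (range 0.012 to 0.38), and in all 6 just 1 gene fell. *Yy1* fell by 0.25 with the cytokines, *Gabpb1*, for a subunit of nuclear respiratory factor GABP, rose by 0.26 in set B, and the nuclear receptor gene *Esrra*, whose exons are covered to 65.5% by *Trmt112* on the opposite strand, fell by 0.76 with tunicamycin and was lower in set A than set B by a log2 fold change of -0.41. Standard errors of the 23 values named from this list were 0.044 to 0.14.

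Among the 13 mRNAs encoded by mtDNA, the products of the machinery described here, 7 were tested, and the other 6 (*mt-Co2*, *mt-Co3*, *mt-Atp6*, *mt-Atp8*, *mt-Nd3*, *mt-Nd4l*) had at most 1 count in all libraries together. Since mtDNA is copied into long RNAs that hold these genes too, their reads are missing from the count table, for a reason that was not tested. Reads of the 7 tested may be incomplete as well, which limits what their counts and medians say about these mRNAs. With the cytokines 6 of the 7 rose. Relative to the cytokines alone 7 of 7 fell with tunicamycin and in both oligomycin sets, and 5 with Sal003, and 1 was higher in set A than in set B. Their median log2 fold changes were 0.78 with the cytokines, -1.09 with tunicamycin, -1.36 with Sal003, -1.63 for set A, -2.07 for set B and 0.26 between the sets. The cytochrome b gene *mt-Cytb* averaged 602 CPM in naive macrophages, 1105 CPM with the cytokines, 325 CPM with Sal003, 234 CPM for set A and 194 CPM for set B. The complex I gene *mt-Nd1* rose by 0.85 with the cytokines and fell by 1.45 with tunicamycin, 2.31 for set A and 2.58 for set B, and *mt-Nd2* fell by 1.5 with tunicamycin and *mt-Nd4* by 1.53 with Sal003. Chosen after their values were seen, *mt-Nd1* and *mt-Nd2* were the 2 genes not called with Sal003, at 946 against 1017 CPM (adjusted *P* = 0.61) and 559 against 613 CPM (adjusted *P* = 0.49). *mt-Nd6*, on the other strand of mtDNA, was 0.75 higher in set A than in set B (adjusted *P* = 0.0076, 4 of 4 mice), and without mouse 2 the adjusted *P* was 0.057 (range 0.0002 to 0.057) and 0 of 7 were called, while without a filter and in a fit of the 2 groups 2 were. So 6 of the 7 tested rose with the cytokines, as *Lrpprc* did, and 7 of 7 fell with tunicamycin and in set A, where *Lrpprc* rose further. With Sal003, where 5 of 7 fell, *Lrpprc* was called higher, a call lost in 4 of 10 alternatives. In set B 7 of 7 fell as well, and *Lrpprc* was not called there (adjusted *P* = 0.48 by edgeR). *Lrpprc* does not stand for the 10 genes. Of these, 6 rose and 2 fell with tunicamycin, 4 and 2 in set A, and 1 and 2 in set B, to be read beside the shares of all genes above. The 2 that fell were *Polg* and *Tfb2m* each time. The standard errors of the 11 values named were 0.16 to 0.22, and each of these values had its direction in 4 of 4 mice.

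The regions around the start of the canonical transcript, which for *Twnk*, *Tfb2m* and *Ssbp1* lies inside the gene bounds given above, were searched on both strands for 5 motifs of known regulators. In the 250 bases before the start of the 10 genes, the NRF1 motif GCGCANGCG, the E-box CACGTG, the C/EBP-ATF response element TGATGNAAT and the STAT6 motif (TTC and GAA apart by 4 bases) had 0 matches, and 5.57%, 6.26%, 0.8% and 5.9% of the 21757 windows of all genes hold them. The GABP and ETS motif CCGGAAGT, held by 2.64% of windows, was in 1 of the 10, that of *Twnk*. No match says only that these letters are not in a window.

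In a wider window of 1000 bases on each side of the start, chosen after the 250 bases had been searched, 4 of the 10 genes held CCGGAAGT or its complement, against 8.79% of 21748 windows. The NRF1 motif was in 2 (*Polrmt* and *Tfb2m*, against 15.2%), the E-box in 7 (against 27.9%), the STAT6 motif in 5 (against 40%) and the C/EBP-ATF element in 0 (against 5.95%). The 4 stretches with the GABP and ETS motif are shown, with its letters in capitals, because GABP is known as a regulator of mitochondrial genes, and a match is a description and not a shown binding site. In GRCm39 they lie at chr10:71073905-71073930 (*Tfam*, minus strand, 190 bases after the start), chr11:80032972-80032997 (*Tefm*, minus strand, 852 after), chr7:79116043-79116068 (*Polg*, minus strand, 52 after) and chr19:44994877-44994902 (*Twnk*, plus strand, 51 before, where it also falls in an exon of *Mrpl43*). *Twnk* carries the motif on the opposite strand.
Tfam: tgccgcggaCCGGAAGTccgggcttc
Tefm: cacacgaaaCCGGAAGTtgaggagga
Polg: ggacctcacCCGGAAGTccctctgca
Twnk: taaccggtgACTTCCGGttccggggt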

How the data were processed

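RNA-seq of 24 macrophage libraries was used. After trimming and removal of ribosomal reads, the authors aligned with STAR 2.7 to GRCm39 and counted with htseq-count 0.9.1, and the deposited values are raw counts per gene. Replicate numbers were taken as mice. Differences were tested with edgeR 4.0.16 in R 4.3.3 (TMM, filterByExpr, quasi-likelihood test), in 1 fit of 6 conditions without a block, with *P* values adjusted over the 13679 genes tested. The median coefficient of variation between mice was 7.06%. Libraries of the same mouse had a median correlation of their deviations of 0.236, against -0.0543 for different mice, so a replicate block was an alternative. The others were DESeq2 1.42.0, upper-quartile scaling, no filter, at least 10 counts in every library, a fit of the 2 groups compared, each mouse left out, and a 2.5-fold minimum for counts of genes. The 10 genes, the gene lists and the tests were chosen with earlier results of these data known. Named were all 10 genes, up to 2 genes per direction of each pathway list with the largest called log2 fold change, *Tfb1m*, *Slc25a36* and *Polg2*, the 3 genes most correlated with the members of widest and narrowest range, and genes that check the labels. The planned comparison of levels between genes per transcript length was left out, because the annotated lengths were not reliable. TPM values were not used, because the header of that table does not match its columns, and protein features because no protein table was available.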

Additional observations from a re-analysis of the deposited data

Results flagged for a closer look

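In 2 of 60 groups of 4 libraries (10 genes in 6 conditions), 1 library lay far from the other 3, by a gap that took most of the range of the group (above the 95% limit of Dixon's test), which chance gives in about 1 in 20 groups. Both were the oligomycin set A library of mouse 5. *Tefm* had 8.089 CPM there, against 8.943 to 9.055 CPM in the other mice, and *Slirp* had 17.53 CPM, against 18.83 to 19 CPM. The cause was not tested.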

How the results depend on the processing

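Of the 600 single-gene values under the 10 alternatives, 538 kept direction and call, 42 lost the call, 11 gained it and 9 turned in sign, none of the last a called change. Of 60 results 35 had no other call or direction. Signs turned for *Slirp* with tunicamycin without a filter (0.0133; -0.0784 to 0.0261 with each mouse left out), *Lrpprc* in set B with upper-quartile scaling (-0.0036), and, leaving out each mouse, *Ssbp1* with Sal003 (-0.0584 to 0.0138) and between the sets (-0.0326 to 0.0611), *Tfam* in set A (-0.0043 to 0.1388) and *Polg* between the sets (-0.064 to 0.0002). With the mouse as a replicate block all 12 counts of called genes were as given, 4 higher and 1 lower with the cytokines among them. Fitting 2 groups gave 2 higher with the cytokines and 2 in set B. Upper-quartile scaling gave 2 lower with the cytokines, 1 higher with Sal003 and 1 lower in set A than set B, and no filter gave 1 higher with Sal003. The 2.5-fold minimum left 1 higher gene with tunicamycin and for each oligomycin set, and 0 in the other counts, with no share of all genes at that minimum given. Leaving out each mouse gave 2 to 5 higher and 1 to 2 lower with the cytokines, 1 to 3 higher and 0 to 1 lower with Sal003, 1 to 2 higher in set B, and 0 to 2 lower in set A than set B. Of 138 named list values that were called, 125 kept direction and call in every alternative. The cause was not tested, beyond the fewer libraries in some fits. Among the 10 genes *Slc25a33* had the fewest counts, 30 to 40 per library with the cytokines.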
